A study of Mus musculus with 24 samples.

Results

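The genes described here are those whose response to reduced Dnmt1 differed between haematopoietic stem cells (HSC) and myeloid progenitors (MP), measured as the hypomorph-minus-wildtype change in HSC minus the same change in MP. The comparison used 11 of the 24 columns in the value table, chosen by sample title, and covered every gene that passed a filter on low values, 12765 of 18194 represented. Those columns are 3 arrays of Dnmt1 hypomorph HSC, 2 of wildtype HSC, 3 of hypomorph MP and 3 of wildtype MP. A further 2 arrays of wildtype B cell progenitors did not enter the difference but helped to estimate the spread. They also counted in the filter on low values and in the choice of probe set, so a gene could pass through them alone. The remaining 11 columns are a second normalization of the same HSC and MP labels. All cells were sorted from the bone marrow of mice of the 129ola strain at an age of 8 to 12 weeks, and 35000 to 100000 cells went into each labelling. Hypomorph animals carried Dnmt1-/chip, a null allele over an allele of reduced function and wildtype animals were Dnmt1+/+. The sort gates are not given in the sources used here, and nothing in the labels says whether different arrays represent different mice, so each p-value measures only the spread between these arrays.

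Dnmt1 is the maintenance DNA methyltransferase, which copies methylation from the parental to the new strand when DNA is replicated. HSC are rare and mostly quiescent cells that renew themselves and give rise to every blood lineage. Myeloid progenitors divide actively and already express the genes of granulocytes, monocytes, mast cells, erythrocytes or platelets. The series title names myeloid and erythroid genes in HSC, and the difference tested here asks which responses to the hypomorph alleles were not the same in the stem cells and in their myeloid progeny.

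Most marker genes followed the labels. Esam, Fgd5, Hlf, Mecom and Procr had higher means in wildtype HSC than in wildtype MP. Slamf1, another HSC marker, did not separate them, with means of 8.17 in wildtype HSC and 8.16 in wildtype MP. Kit, taken as a marker of both, averaged 9.8 in wildtype HSC and 10.28 in wildtype MP. Procr, an endothelial protein C receptor that marks HSC, lay between 10.29 and 11.15 (log2 RMA value) on the 5 HSC arrays and between 5.18 and 6.74 on the 6 MP arrays. The granule protease gene Elane lay between 4.95 and 6.74 on the HSC arrays and between 11.80 and 12.59 on the MP arrays. The B cell regulator gene Ebf1 was at most 3.51 on all 11 arrays. Array medians ranged from 4.56 to 4.74. The spread differed between groups, with a median SD over genes of 0.286 in hypomorph HSC, 0.253 in wildtype HSC, 0.186 in hypomorph MP and 0.196 in wildtype MP. The Y-linked gene Eif2s3y was below 3 on wildtype HSC array 2, hypomorph MP array 2 and wildtype MP array 3 and at least 6.95 on the other 8 HSC and MP arrays, while Xist, the X inactivation transcript, lay between 8.13 and 12.81 on all 11. None of the 4 sex-linked genes tested was called in the difference, nor had an unadjusted p under 0.05 (0 of 4, limma). Their levels varied widely within groups (pooled SD of the list level 1.365), so the absence of a call says little. Mean Eif2s3y was 8.12 in hypomorph HSC, 5.51 in wildtype HSC, 6.73 in hypomorph MP and 7.01 in wildtype MP. The part of the sex of the mice in any result was not tested.

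The Dnmt1 transcript fell in HSC and in MP of hypomorph mice. Wildtype HSC arrays read 11.80 and 11.58 and hypomorph HSC arrays 9.02, 8.48 and 9.31. Wildtype MP arrays read 11.41, 11.30 and 11.73 and hypomorph MP arrays 8.01, 8.24 and 8.17. No hypomorph array reached the level of a wildtype array. It fell by 2.75 (SE 0.24) in HSC and fell by 3.34 (SE 0.22) in MP on the log2 scale, and the difference of 0.58 had a 95% confidence interval from -0.12 to 1.29 and a limma adjusted p of 0.293.

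Most genes of the mitosis list (53 of 63) and 23 of 50 genes of DNA replication rose in hypomorph HSC at a limma adjusted p under 0.05. So did 8 of 14 mast cell, basophil and eosinophil genes and 8 of 28 granulocyte-monocyte genes, against 5.37% of all genes tested. The median effects of these lists in MP lay between -0.30 and 0.31. The gene farthest in the higher direction was the chemokine receptor gene Ccr1, whose genotype effect was 5.08 (SE 0.36) higher in HSC than in MP. The gene farthest in the lower direction was BC018473, at -2.99 (SE 0.38). In all, 720 of 12765 genes (5.64%) passed a limma adjusted p of 0.05 and are referred to as called. Of these, 417 (3.27% of the genes tested) had the higher effect in HSC and 303 (2.37%) the lower, and 713 differed by at least 2-fold. The median difference over all genes tested was -0.09. At an unadjusted p under 0.05 there were 3082 genes.

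**Figure D1:**
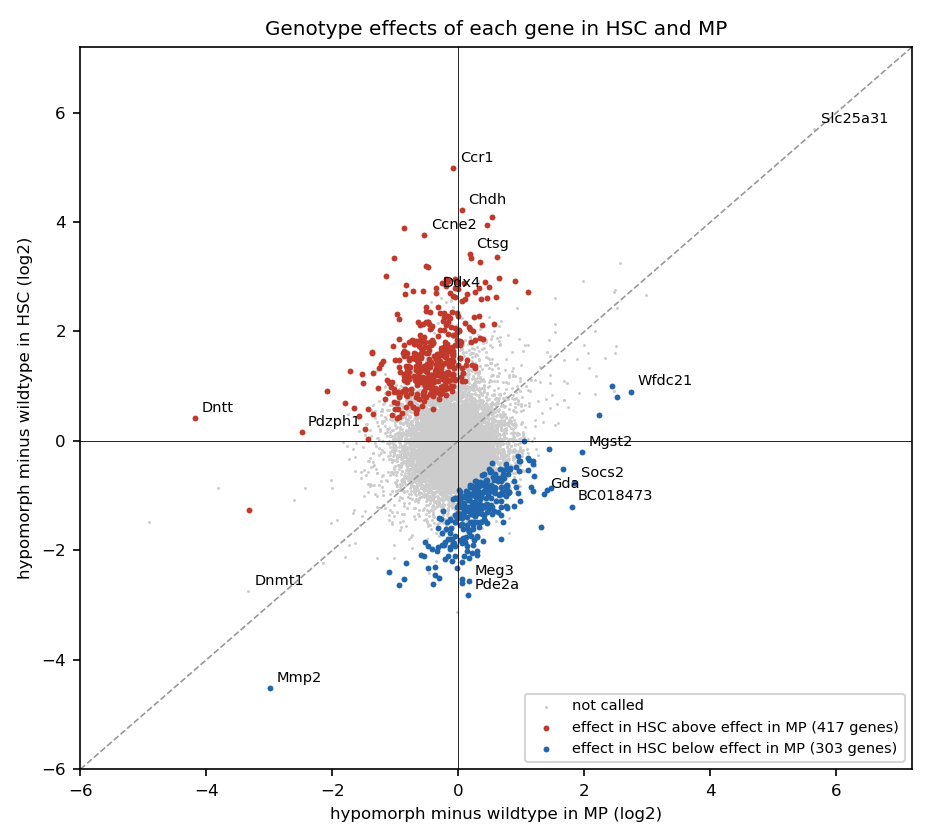
Each point is 1 of 12765 genes, placed by its hypomorph-minus-wildtype change in MP (x axis, log2) and in HSC (y axis, log2). Red marks the 417 and blue the 303 genes with a called difference, and the dashed line marks equal effects. Most called genes lie far from 0 on the HSC axis and close to 0 on the MP axis, while Dntt and Pdzph1 lie far from 0 on the MP axis alone.

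The HSC and MP effects come from different arrays, and over the 12765 genes their correlation was 0.02, a description across genes that are not independent. The median absolute effect was 0.34 in HSC and 0.24 in MP. Arrays also spread more within the HSC groups (median SD 0.286 in hypomorph, 0.253 in wildtype) than within the MP groups (0.186 and 0.196). Wildtype HSC had 2 arrays, and the fit used a single spread per gene for all groups. The part of this unequal spread in the size of the effects and the number of calls was not tested. On its own the genotype effect was called for 1380 genes in HSC (10.8% of those tested, 5.37% higher and 5.44% lower) and 75 genes in MP (0.588%, with 0.337% higher and 0.251% lower). By construction the difference contains both effects. Of the 417 higher genes, 348 were called higher in HSC and not called in MP, and 61 were called in neither. Of the 303 lower genes, 238 were called lower in HSC and not called in MP, and 48 were called in neither.

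By arithmetic the same difference is the MP-minus-HSC contrast of wildtype cells minus that of hypomorph cells, contrasts that were called for 31.8% and 11.6% of the genes tested. Among the 417 higher genes, MP exceeded HSC by a median of 1.79 in wildtype cells and by -0.09 in hypomorph cells. Among the 303 lower genes the medians were -1.63 and -0.16. Over all genes tested they were -0.12 and -0.03. These contrasts share their arrays with the difference that chose the genes, so the medians describe those genes and are no separate result.

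The number of calls depended on single arrays. Leaving out hypomorph HSC array 2 left 285 calls, wildtype HSC array 2 left 321, hypomorph MP array 1 left 374, hypomorph MP array 2 left 293, wildtype MP array 1 left 242 and wildtype MP array 3 left 247. Leaving out hypomorph HSC array 3 gave 1447 calls, wildtype HSC array 1 gave 1117 and wildtype MP array 2 gave 1244. Every one of the 720 genes kept its direction in these 11 fits, and 195 of them (27.1%) stayed called in all 11. Unless a lost call is stated beside it, each gene named below as called belongs to those 195.

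**Figure D2:**
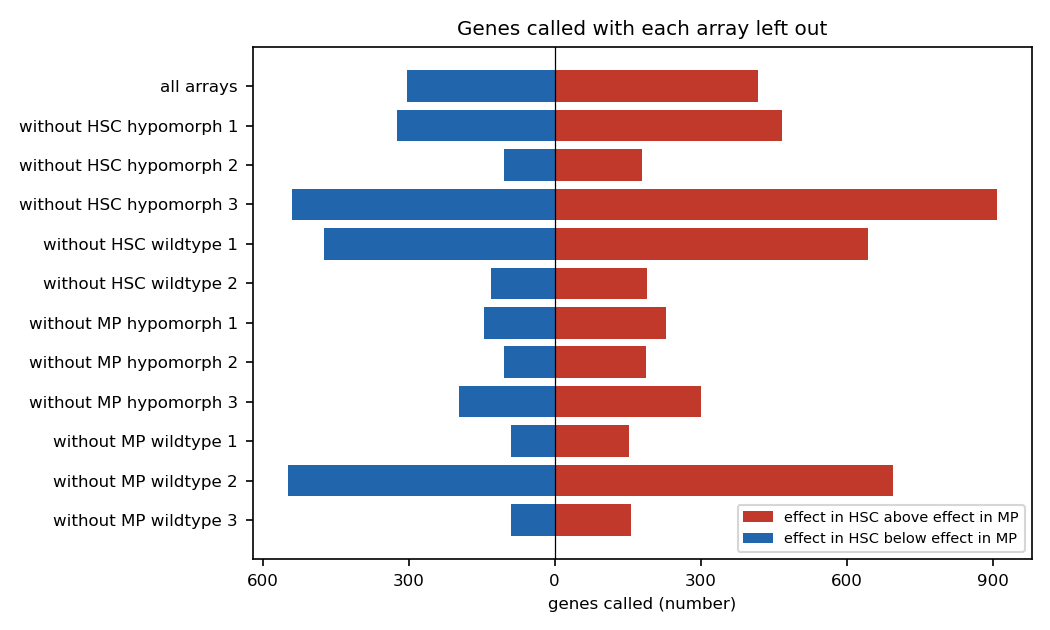
Bars give the number of genes called with the effect in HSC above (red, right) or below (blue, left) that in MP, with all arrays and with each of the 11 arrays left out. Totals ran from 242 without wildtype MP array 1 to 1447 without hypomorph HSC array 3, and red bars were longer than blue bars in each fit.

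Ccr1, a receptor for inflammatory chemokines on myeloid cells, read 3.83 and 3.32 on the wildtype HSC arrays and 8.98, 8.37 and 8.34 on the hypomorph HSC arrays. In MP it read 10.20, 9.56 and 9.82 in wildtype and 9.92, 9.48 and 9.92 in hypomorph cells. Wildtype HSC stood apart as low, hypomorph HSC had come close to the MP level, and the MP groups overlapped. The effect was 4.99 (SE 0.27) in HSC and -0.08 (SE 0.24) in MP, and the limma adjusted p of the difference was 2.15e-05. A second probe set of Ccr1 gave a difference of only 0.76, and the mean of both probe sets gave 2.92. Ccr2, the receptor that guides monocytes out of the marrow, rose from 5.12 and 5.03 to between 7.51 and 8.02 in HSC and read 9.55 to 10.84 in MP, with a difference of 3.54 (SE 0.32, limma adjusted p = 0.000176). Other probe sets of Ccr2 ran from -0.59 to 2.33, and their mean with it gave 1.71. Of the 14 chemokine and chemokine receptor genes tested, 3 were called higher and 1 lower, against 3.27% and 2.37% of all genes. The lower one was the macrophage inflammatory protein gene Ccl4, at -1.84 (SE 0.37), and the third higher one was Ccl9 at 1.27 (SE 0.23).

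Promoter windows from 250 bases before to 50 bases after the annotated start were taken from RefSeq (GRCm38.p6) and were found for 10317 of the 12765 genes tested. The windows of 4 genes are shown, chosen by the size of their difference. Ccr1, Depdc1a and Dntt had the highest differences. Among genes called in opposite directions, Gda had the largest difference of those with a window. The windows are those of Ccr1 (chr9:123968643-123968942, minus strand), Depdc1a (chr3:159495183-159495482, plus strand), Dntt (chr19:41029025-41029324, plus strand) and Gda (chr19:21472612-21472911, minus strand). Capitals mark CG, the site that Dnmt1 methylates, in Ccr1, Dntt and Gda. In Depdc1a they mark the cell cycle homology element TTTGAA and the CCAAT box, on either strand.
Ccr1: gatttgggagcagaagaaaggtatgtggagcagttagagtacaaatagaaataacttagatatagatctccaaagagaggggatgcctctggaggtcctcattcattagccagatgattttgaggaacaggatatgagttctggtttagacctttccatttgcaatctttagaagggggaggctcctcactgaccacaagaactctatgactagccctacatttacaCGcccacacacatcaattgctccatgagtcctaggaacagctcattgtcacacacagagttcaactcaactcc
Depdc1a: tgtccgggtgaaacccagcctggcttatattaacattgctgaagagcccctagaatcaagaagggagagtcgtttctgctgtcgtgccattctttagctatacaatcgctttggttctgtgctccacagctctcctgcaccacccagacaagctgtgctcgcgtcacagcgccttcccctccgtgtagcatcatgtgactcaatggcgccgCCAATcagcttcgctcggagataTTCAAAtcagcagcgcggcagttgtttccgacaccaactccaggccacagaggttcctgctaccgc
Dntt: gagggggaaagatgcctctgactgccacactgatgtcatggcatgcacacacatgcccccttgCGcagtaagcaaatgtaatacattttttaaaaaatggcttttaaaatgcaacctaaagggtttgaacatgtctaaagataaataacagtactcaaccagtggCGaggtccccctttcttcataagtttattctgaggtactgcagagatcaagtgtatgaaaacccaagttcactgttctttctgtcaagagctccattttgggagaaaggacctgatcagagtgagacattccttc
Gda: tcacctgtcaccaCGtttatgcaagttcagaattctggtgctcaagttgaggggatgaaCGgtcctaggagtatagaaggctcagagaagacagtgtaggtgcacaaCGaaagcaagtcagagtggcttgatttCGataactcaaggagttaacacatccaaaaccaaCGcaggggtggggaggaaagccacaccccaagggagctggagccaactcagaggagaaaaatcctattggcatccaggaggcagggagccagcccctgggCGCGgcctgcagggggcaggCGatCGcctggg
The Ccr1 window held 1 CG, that of Dntt 2, that of Gda 9 and that of Depdc1a 16. No methylation was measured in these samples.

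The mitosis list, genes for chromosome segregation and cell division, held the most called members. Of its 63 members tested, 43 were called, each higher, against 3.27% of all genes called higher. The median difference was 1.55, against -0.09 over all genes, made up of a median of 1.29 in HSC and -0.30 in MP. In HSC alone 53 members were called higher and 1, the kinesin gene Kif15, lower, at -0.79, against 5.37% and 5.44% of all genes. Leaving out wildtype MP array 1 left 26 members called and leaving out wildtype MP array 3 left 28. The mean level of the list was 7.48 and 7.55 on the wildtype HSC arrays and between 8.80 and 8.99 on the hypomorph HSC arrays. On the MP arrays it lay between 8.89 and 9.13 in wildtype and between 8.62 and 8.89 in hypomorph cells. In sorted populations a larger share of dividing cells and more transcript per cell cannot be told apart.

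Depdc1a, a nuclear protein gene of mitotic cells, read 3.09 and 3.03 in wildtype HSC and 5.98, 7.02 and 7.85 in hypomorph HSC. In MP it read 7.34, 6.19 and 7.13 in wildtype and 5.15, 6.46 and 6.46 in hypomorph cells. The HSC groups did not overlap and the MP groups did. Its difference was 4.75 (SE 0.70), with a limma adjusted p of 0.00263. Ect2, the exchange factor that drives cytokinesis, differed by 3.69 (SE 0.58), after 6.40 and 5.45 in wildtype and 8.17, 9.63 and 9.54 in hypomorph HSC. The checkpoint kinase gene Bub1 differed by 3.45 (SE 0.47), the midbody gene Cep55 by 3.31 (SE 0.48) and the kinase gene Aurkb by 2.89 (SE 0.32). Esco2, which acetylates cohesin in S phase and stands on no list, differed by 4.36 (SE 0.61). The proliferation marker Mki67 differed by 1.64 (SE 0.35), a call that was lost without hypomorph HSC array 2, wildtype MP array 1 or wildtype MP array 3, with values from 1.43 to 1.79 over all 11 fits.

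Genes of DNA replication followed in the same direction with fewer calls. Of 50 tested, 15 were called, each higher, against 3.27% of all genes, with a median difference of 1.04. The HSC effect was called higher for 23 of the 50, against 5.37% of all genes. The count of called differences fell to 7 without wildtype MP array 1, to 8 without hypomorph HSC array 2, wildtype HSC array 2, hypomorph MP array 2 or wildtype MP array 3, and to 9 without hypomorph MP array 1, and was 26 without hypomorph HSC array 3. Ccne2, the cyclin E2 gene that drives entry into S phase, read 4.34 and 3.54 in wildtype HSC and 7.50, 8.02 and 7.61 in hypomorph HSC. In MP it read 8.32, 7.44 and 8.29 in wildtype and 7.53, 7.08 and 7.83 in hypomorph cells. Wildtype HSC was the one group without overlap, and the difference was 4.30 (SE 0.44, limma adjusted p = 0.000323). The licensing factor gene Cdc6 differed by 2.36 (SE 0.35) and the ribonucleotide reductase subunit gene Rrm2 by 1.85 (SE 0.33). The helicase subunit gene Mcm4 differed by 2.72 (SE 0.65), but wildtype HSC array 1 read 9.65 and array 2 read 7.79. Its call was lost without wildtype HSC array 2 (1.79), hypomorph HSC array 2 (2.58), hypomorph MP array 1 (2.64), hypomorph MP array 2 (2.71), wildtype MP array 1 (2.68) or wildtype MP array 3 (2.74).

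Of 33 homologous recombination and Fanconi repair genes, 7 were called, each higher, against 3.27% of all genes, with a median of 0.65. The count was 4 without hypomorph HSC array 2, hypomorph MP array 2, wildtype MP array 1 or wildtype MP array 3. The exonuclease gene Exo1 differed by 1.90 (SE 0.31) and by 1.21 as the mean of its probe sets. Brca1, which acts in repair of double-strand breaks, differed by 1.88 (SE 0.35), and the mean of its probe sets gave 0.69, which was not called. Chek1, a checkpoint kinase gene, differed by 1.82 (SE 0.34). Among 24 genes of the G1 cyclins, their kinases and the E2f factors, 3 were called, each higher, against 3.27% of all genes, with a median of 0.71. That count was 1 without hypomorph HSC array 2, hypomorph MP array 2 or 3, or wildtype MP array 1 or 3, and 7 without hypomorph HSC array 3. E2f8, a repressor of the E2F family, differed by 2.01 (SE 0.31), after 8.32 and 8.55 in wildtype and 10.37, 10.45 and 10.54 in hypomorph HSC. Ccnd1, the cyclin D1 gene, rose in both cell types, by 2.73 in HSC and 2.47 in MP, and its difference of 0.26 had an SE of 0.63 and a limma adjusted p of 0.835.

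**Figure D3:**
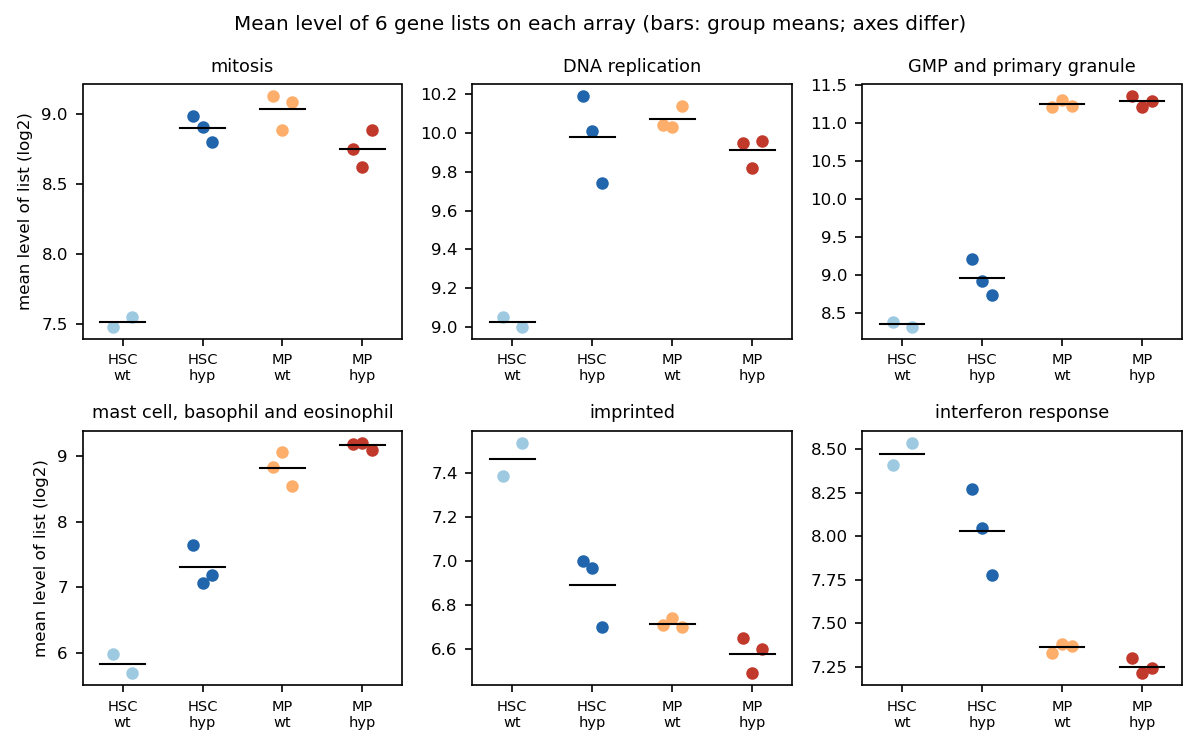
Points are arrays, placed by the mean log2 level of the tested members of 6 gene lists, and bars are group means; the y axes differ between panels. In the mitosis and DNA replication panels wildtype HSC is the group that stands apart as low, in the granule and mast cell panels hypomorph HSC lies between wildtype HSC and MP, and in the imprinted and interferon panels wildtype HSC is the highest group.

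The granulocyte-monocyte list, genes of primary granules and their progenitors, had 6 of 28 members called, each higher, against 3.27% of all genes, and a median difference of 0.37 (0.23 without hypomorph HSC array 1). The count was 5 to 9 with 1 array left out. Ctsg, the cathepsin G gene of neutrophil granules, read 8.08 and 6.29 in wildtype HSC and 10.31, 10.56 and 10.95 in hypomorph HSC. In MP it read 13.73, 13.79 and 13.72 in wildtype and 13.88, 13.95 and 13.93 in hypomorph cells. Hypomorph HSC lay above wildtype HSC and well below MP, and the difference was 3.24 (SE 0.52, limma adjusted p = 0.00445). Ms4a3, a cell cycle regulator gene of granulocyte-monocyte progenitors, differed by 2.93 (SE 0.56), and the cystatin gene Cst7 by 2.02 (SE 0.38). The Fc receptor gene Fcgr3, named after its values were seen, rose in both cell types, by 2.72 in HSC and 1.11 in MP, and the effect in HSC was the larger by 1.61 (SE 0.28). For the granule protease genes Prtn3 and Elane the HSC effect was not called. Prtn3 lay between 10.15 and 10.39 in hypomorph HSC and read 10.29 and 10.62 in wildtype HSC, and Elane lay between 4.95 and 6.74 and read 6.40 and 4.96.

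Beside these values, the list of late neutrophil and monocyte genes, which would mark mature cells, had a mean level of 5.47 and 6.17 in wildtype HSC and 6.57 to 7.43 in hypomorph HSC. In MP it was 7.17 to 7.43 in wildtype and 7.60 to 8.28 in hypomorph cells. In the difference 2 of its 16 members were called higher and 1 lower, against 3.27% and 2.37% of all genes. The part of mature cells in the granule gene values was not tested. F13a1, the coagulation factor XIII gene of monocytes, differed by 3.09 (SE 0.45), after 3.43 and 3.34 in wildtype HSC and 6.12, 5.67 and 7.15 in hypomorph HSC. Wfdc21, a neutrophil gene, went the other way at -1.84 (SE 0.45), since its rise was called in MP (2.74) and not in HSC (0.90). That call was lost without hypomorph HSC array 2, wildtype HSC array 2, hypomorph MP array 1 or 2, or wildtype MP array 1 or 3, with values from -2.16 to -1.50 over the 11 fits.

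Genes of mast cells, basophils and eosinophils followed. Of 14 tested, 6 were called, each higher, against 3.27% of all genes, with a median difference of 1.45 and a median HSC effect of 2.19. The median difference was 0.68 with no filter (19 genes), 0.69 over every probe set, 0.86 as the mean of probe sets and 0.99 with array weights. Without hypomorph HSC array 1 it was 0.94, and between 4 and 6 members were called with 1 array left out. Fcer1a, a subunit of the IgE receptor, read 4.02 and 3.79 in wildtype HSC, 7.71, 6.59 and 6.97 in hypomorph HSC, 8.00, 8.28 and 8.31 in wildtype MP and 7.67, 8.05 and 7.44 in hypomorph MP. Wildtype HSC stood apart as low, and the difference was 3.66 (SE 0.45, limma adjusted p = 0.00127). Cpa3, the mast cell carboxypeptidase gene, differed by 3.14 (SE 0.40), after 5.45 and 6.24 in wildtype and 9.57, 8.79 and 9.19 in hypomorph HSC. The basophil protease gene Mcpt8 differed by 2.34 (SE 0.35) and the eosinophil lectin gene Siglecf by 2.15 (SE 0.34). The chymase gene Cma1 rose by 3.25 in HSC and by 2.57 in MP, and its difference of 0.68 (SE 0.63) was not called.

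Erythroid genes moved less uniformly. Of 35 tested, 5 were called higher and 1 lower, against 3.27% and 2.37% of all genes. The median difference of -0.17 had no settled sign, since it was 0.15 without hypomorph HSC array 3 and 0.11 without hypomorph MP array 3 and reached -0.24 without hypomorph MP array 2. It lay between -0.10 and -0.01 without hypomorph HSC array 2, wildtype HSC array 1 or 2, hypomorph MP array 1 or wildtype MP array 3. Mfsd2b, a sphingosine 1-phosphate exporter of red cells, differed by 2.69 (SE 0.49), after 4.44 and 5.84 in wildtype and 7.2, 7.0 and 7.75 in hypomorph HSC, and by 1.22 (limma adjusted p = 0.0634) as the mean of its probe sets. Gata1, the erythroid and megakaryocyte transcription factor gene, read 7.47 and 7.15 in wildtype HSC, 8.95, 8.34 and 8.62 in hypomorph HSC, 9.58, 9.97 and 9.45 in wildtype MP and 9.36, 9.08 and 9.75 in hypomorph MP. The HSC groups did not overlap, the MP groups did, and the difference was 1.60 (SE 0.41, limma adjusted p = 0.0395). That call was lost without hypomorph HSC array 1 (1.44), hypomorph HSC array 2 (1.74), wildtype HSC array 2 (1.43), hypomorph MP array 1 (1.58), hypomorph MP array 2 (1.44), wildtype MP array 1 (1.64), wildtype MP array 2 (1.44) or wildtype MP array 3 (1.71). The number of erythroid genes called higher was 1 without wildtype MP array 1 or 3, 2 without hypomorph HSC array 2, wildtype HSC array 2 or hypomorph MP array 1 or 2, and 3 without hypomorph HSC array 1 or wildtype MP array 2. The lower call was lost without hypomorph HSC array 2, wildtype HSC array 2, hypomorph MP array 1 or 2, or wildtype MP array 1 or 3, and 2 genes were called lower without wildtype MP array 2. The other lineage factors were not called: Klf1 at 0.89 (SE 0.41), Cebpa at 0.49 (SE 0.39), Id2 at 0.65 (SE 0.45), Gata2 at -0.18 (SE 0.34) and Spi1 at -0.71 (SE 0.34). Spi1 was called with array weights (-1.15, limma adjusted p = 0.00871), where Klf1 was 0.19 and Id2 was -0.01. Cebpa was 0.02 without wildtype HSC array 1, 0.97 without wildtype HSC array 2 and 0.29 without hypomorph HSC array 1. Id2 was 0.25 without wildtype HSC array 1, 1.05 without wildtype HSC array 2 and 0.43 without hypomorph HSC array 1. Gata2 was -0.50 without wildtype HSC array 1 and 0.15 without wildtype HSC array 2, so its sign was not settled. The 95% confidence intervals reached from 0.00 to 1.78 for Klf1 and from -0.32 to 1.62 for Id2, an inhibitor of helix-loop-helix transcription factors that rose in HSC by 1.75.

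**Figure D4:**
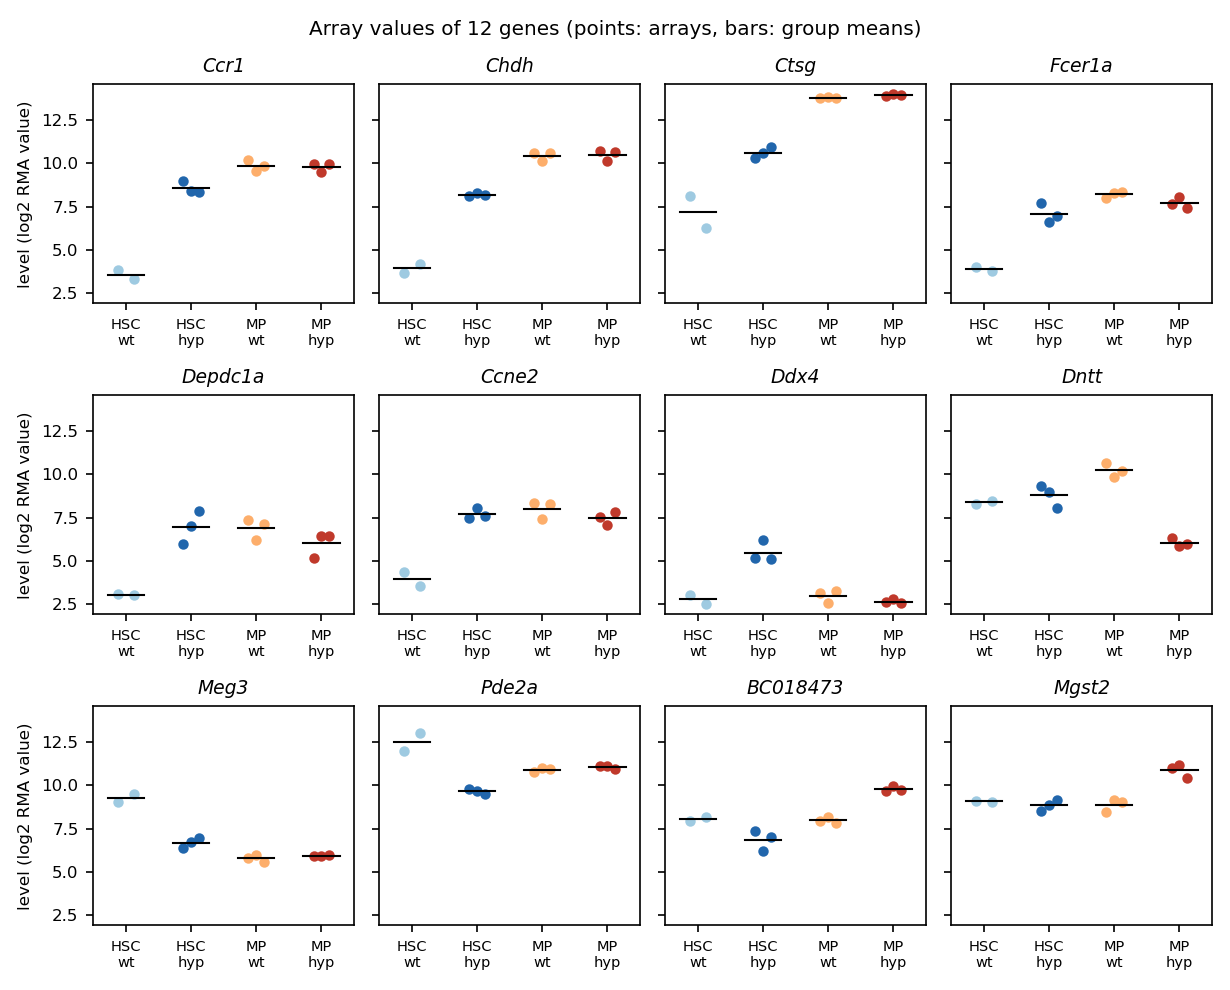
Log2 RMA values of 12 genes on each array, with wildtype (wt) and hypomorph (hyp) HSC in blue and MP in orange and red; bars are group means. Wildtype HSC is low in the first 6 panels, hypomorph HSC alone is high for Ddx4, hypomorph MP alone is low for Dntt and alone is high for Mgst2 and BC018473, and wildtype HSC alone is high for Meg3 and Pde2a.

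Chdh, the choline dehydrogenase gene, and Ddx4, a germ cell RNA helicase gene, rose in HSC alone without belonging to those groups. Chdh read 3.70 and 4.22 in wildtype HSC and 8.11, 8.26 and 8.17 in hypomorph HSC, and between 10.11 and 10.69 on all 6 MP arrays, with a difference of 4.17 (SE 0.33, limma adjusted p = 4.21e-05). Ddx4 read 3.06 and 2.52 in wildtype HSC, 5.17, 6.19 and 5.10 in hypomorph HSC, 3.15, 2.60 and 3.29 in wildtype MP and 2.62, 2.80 and 2.57 in hypomorph MP. Hypomorph HSC was the one group above 4 for Ddx4, and the difference was 3.05 (SE 0.43, limma adjusted p = 0.00204). Ddx4 passed the filter on low values only through hypomorph HSC, the group where it is high, so this p-value is no separate support. Ddx4 was the only called member of 19 germline and pluripotency genes tested, a share close to the 5.64% of all genes called in either direction. Slc25a31, a germ cell ADP/ATP carrier gene on that list, rose by 5.70 in HSC and 5.65 in MP, a difference of 0.06 (SE 0.76). The synaptonemal complex gene Syce1 rose by 2.43 and 2.51, a difference of -0.08 (SE 0.60). Btla, an inhibitory receptor gene of lymphocytes, read 3.66 and 3.47 in wildtype HSC, 6.06, 5.98 and 6.32 in hypomorph HSC and 4.0 to 4.70 in MP, and differed by 2.50 (SE 0.32). The zinc finger genes Zfp229 and Zfp62 differed by 4.16 (SE 0.55) and 3.69 (SE 0.70). The call of Zfp62 was lost without wildtype HSC array 2 (2.96), and the mean of its probe sets gave 2.39.

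Among the 303 genes with the lower effect in HSC, several fell in hypomorph HSC to near or below the level of MP. Pde2a, a cyclic nucleotide phosphodiesterase gene, read 11.96 and 12.99 in wildtype HSC, 9.79, 9.68 and 9.50 in hypomorph HSC and 10.75 to 11.09 on the 6 MP arrays. Wildtype HSC was the highest group and hypomorph HSC the lowest, and the difference was -2.97 (SE 0.35, limma adjusted p = 0.000892). Krt8, a keratin gene, read 8.02 and 7.42 in wildtype HSC and at most 5.82 on all other HSC and MP arrays, with a difference of -2.64 (SE 0.35). The secreted protease gene Htra3 differed by -2.57 (SE 0.29) and by -1.22 as the mean of its probe sets, and the growth factor gene Bmp4 by -2.39 (SE 0.32). Cracr2b, a regulator of calcium channels, differed by -2.47 (SE 0.35). Selenom, a selenoprotein gene, differed by -2.89 (SE 0.60), a call lost without wildtype HSC array 2 (-2.71) or wildtype MP array 1 (-2.62).

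Of 34 imprinted genes, which are expressed from 1 parental allele under the control of DNA methylation, 5 were called, each lower, against 2.37% of all genes called lower. The median difference was -0.36. It was -0.20 with no filter (1 higher and 4 lower of 46) and -0.02 with the 75th percentile filter (2 lower of 20), and the second normalization gave 1 higher and 6 lower of 35. The count was 3 without hypomorph HSC array 2, wildtype HSC array 2 or wildtype MP array 3. Meg3, a maternally expressed long noncoding RNA of the Dlk1 cluster, read 9.01 and 9.49 in wildtype HSC and 6.39, 6.71 and 6.97 in hypomorph HSC. In MP it read 5.79, 6.0 and 5.55 in wildtype and 5.94, 5.90 and 5.97 in hypomorph cells. Only wildtype HSC stood high, and the difference was -2.72 (SE 0.31, limma adjusted p = 0.000738), or -1.71 as the mean of all its probe sets. Peg3, a paternally expressed zinc finger gene, read 5.41 and 5.29 in wildtype HSC and at most 3.64 on the other 9 HSC and MP arrays. Its difference was -2.04 (SE 0.35), and it passed the filter on low values only through wildtype HSC, the group where it is high. Without the filter, when another probe set stood for it, Peg3 gave -0.65 (limma adjusted p = 0.203). Ndn, a paternally expressed growth suppressor gene, fell by 2.63 in HSC and had an MP effect of -0.94, a difference of -1.68 (SE 0.31). Grb10, an imprinted adaptor gene, fell by 1.23 in HSC with an MP effect of -1.26, and its difference was 0.03 (SE 0.46).

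Genes that mark HSC split. Of 40 tested, 4 were called lower and 1 higher, against 2.37% and 3.27% of all genes. The median difference was -0.18, with -0.45 without wildtype HSC array 1, -0.01 without wildtype HSC array 2, -0.12 without hypomorph HSC array 3 or wildtype MP array 3, and -0.27 without hypomorph MP array 2. Without wildtype HSC array 2 or wildtype MP array 2, 2 genes were called higher. Pdzk1ip1, a membrane protein gene of HSC, differed by -1.76 (SE 0.29). Socs2, a brake on cytokine signalling, read 8.99 and 8.06 in wildtype HSC and 8.06, 7.69 and 7.50 in hypomorph HSC, while MP rose from 5.15, 4.14 and 5.09 to 6.01, 6.98 and 6.92. The MP groups did not overlap and the HSC groups touched, and the difference was -2.62 (SE 0.54, limma adjusted p = 0.0153), or -1.24 as the mean of its probe sets. Slamf1, the CD150 gene used to sort HSC, went the other way at 1.51 (SE 0.33). It read 8.03 and 8.30 in wildtype and 9.20 to 9.23 in hypomorph HSC, and its call was lost without wildtype MP array 1 or 3, with values from 1.32 to 1.65 over the 11 fits. Fgd5, a marker gene of HSC, fell by 1.91 in HSC and fell by 1.74 in MP, and its difference of -0.17 (SE 0.43) was not called.

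Immediate early genes, which respond within minutes to signals and to cell handling, gave 5 lower calls and 1 higher among 30 immediate early and heat shock genes, against 2.37% and 3.27% of all genes. The median was -0.22, with -0.41 without wildtype HSC array 1, -0.06 without wildtype HSC array 2 or wildtype MP array 2, -0.12 without hypomorph MP array 3, and -0.33 without hypomorph MP array 2. Egr1, a transcription factor gene on this list and on that of HSC markers, read 11.99 and 12.73 in wildtype HSC and 11.03, 11.15 and 11.26 in hypomorph HSC. In MP it read 8.53, 8.15 and 8.77 in wildtype and 9.0, 9.46 and 9.32 in hypomorph cells. The groups overlapped in neither cell type and moved in opposite directions, with a difference of -1.99 (SE 0.36, limma adjusted p = 0.00903), although the MP effect of 0.77 was not called. Junb, of the AP-1 complex, differed by -1.93 (SE 0.37). The higher call was the chaperone gene Hsp90aa1, at 1.63 (SE 0.28). Handling of the samples was not recorded in the labels and its part was not tested. The number of lower calls was 2 without hypomorph HSC array 2, wildtype HSC array 2, hypomorph MP array 2 or wildtype MP array 1 or 3, and 3 without hypomorph MP array 1 or 3.

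Of 46 interferon response genes 2 were called, both lower, a share close to the 2.37% of all genes. Their median difference was -0.45, with -0.26 without hypomorph HSC array 3 or wildtype HSC array 2, -0.29 with the 75th percentile filter and -0.30 as the mean of probe sets. The antiviral gene Ifit1 read 6.88 and 7.54 in wildtype HSC, 5.28, 5.10 and 5.46 in hypomorph HSC and 3.34 to 3.98 in MP. Wildtype HSC was highest, the MP groups overlapped, and the difference was -1.88 (SE 0.36), a call lost without wildtype HSC array 2 (-1.55). Rsad2, which encodes viperin, differed by -1.71 (SE 0.37), a call lost without hypomorph HSC array 2 (-1.70) or hypomorph MP array 2 (-1.62). The interferon count was 1 without hypomorph HSC array 2, wildtype HSC array 2 or hypomorph MP array 2, and 5 without wildtype HSC array 1.

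A few differences came from MP. Dntt, the terminal transferase gene of lymphoid progenitors, read 10.64, 9.82 and 10.18 in wildtype MP and 6.30, 5.87 and 5.95 in hypomorph MP. In HSC it read 8.29 and 8.44 in wildtype and 9.34, 8.95 and 8.06 in hypomorph cells. Hypomorph MP was the lowest group and the HSC groups overlapped. It fell by 4.18 (SE 0.29) in MP with an HSC effect of 0.42 (SE 0.33), and the difference was 4.59 (SE 0.44, limma adjusted p = 0.000222). Other genes of lymphoid priming also fell in MP, where Flt3 fell by 1.46 and Il7r fell by 1.31, while their HSC effects of -0.62 and -0.52 were not called and their differences of 0.84 (SE 0.44) and 0.79 (SE 0.40) were not called either. Pdzph1 read 6.17, 6.52 and 5.99 in wildtype MP and 4.26, 3.57 and 3.37 in hypomorph MP, against 2.63 to 3.00 in HSC. It differed by 2.65 (SE 0.35) and passed the filter on low values only through wildtype MP, the group where it is high. Mgst2, a microsomal glutathione transferase gene, read 8.44, 9.16 and 9.03 in wildtype MP and 10.99, 11.13 and 10.40 in hypomorph MP, while HSC lay between 8.52 and 9.16. Its MP effect was 1.96 (SE 0.27) and its difference -2.18 (SE 0.41, limma adjusted p = 0.0103). Nhsl2 also rose in MP alone, by 1.66, with a difference of -2.18 (SE 0.42), or -1.37 as the mean of its probe sets.

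Both genotype effects were called in opposite directions for 4 genes. BC018473, named here only by its symbol, read 7.94 and 8.16 in wildtype HSC and 7.34, 6.23 and 6.99 in hypomorph HSC, and 7.96, 8.14 and 7.82 in wildtype MP and 9.68, 9.94 and 9.69 in hypomorph MP. It fell by 1.20 in HSC and rose by 1.80 in MP from nearly the same wildtype level. Gda, the guanine deaminase gene, read 8.59 and 8.70 in wildtype and 7.74, 7.63 and 7.64 in hypomorph HSC, and 9.46, 9.30 and 9.35 in wildtype and 10.66, 11.06 and 10.49 in hypomorph MP. Its difference was -2.34 (SE 0.32, limma adjusted p = 0.00168), or -1.55 as the mean of its probe sets. Tmem53, a membrane protein gene, fell by 1.10 in HSC and rose by 0.97 in MP, and hypomorph cells of both types ended between 6.82 and 7.27. Tpm4, a tropomyosin gene, rose by 0.89 in HSC, from 7.10 and 6.79 to between 7.79 and 7.91, and fell by 0.96 in MP, from 8.16, 8.28 and 8.25 to between 7.22 and 7.35. Groups of different genotype did not overlap in either cell type for these 4 genes. They were chosen because both effects were called, so the lack of overlap describes them and is no separate result. The share of all genes without overlap was not counted.

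Where both effects were called in 1 direction and still differed, the gene was Fcgr3, Hmga2, Clec11a or Mmp2, the first 3 of them named after their values were seen. Hmga2, a chromatin protein gene of fetal HSC, fell by 1.26 in HSC and fell by 3.33 in MP, a difference of 2.07 (SE 0.41). Clec11a, a stem cell growth factor gene, rose by 1.00 in HSC and by 2.43 in MP, a difference of -1.43 (SE 0.36). The matrix metalloproteinase gene Mmp2 fell by 4.52 in HSC and fell by 2.99 in MP, a difference of -1.53 (SE 0.39). The call of Clec11a was lost without hypomorph HSC array 2, wildtype HSC array 2, hypomorph MP array 1 or 2, or wildtype MP array 1 or 3, with values from -1.62 to -1.25. The call of Mmp2 was lost without the same 6 arrays or hypomorph MP array 3, with values from -1.91 to -1.16.

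**Figure D5:**
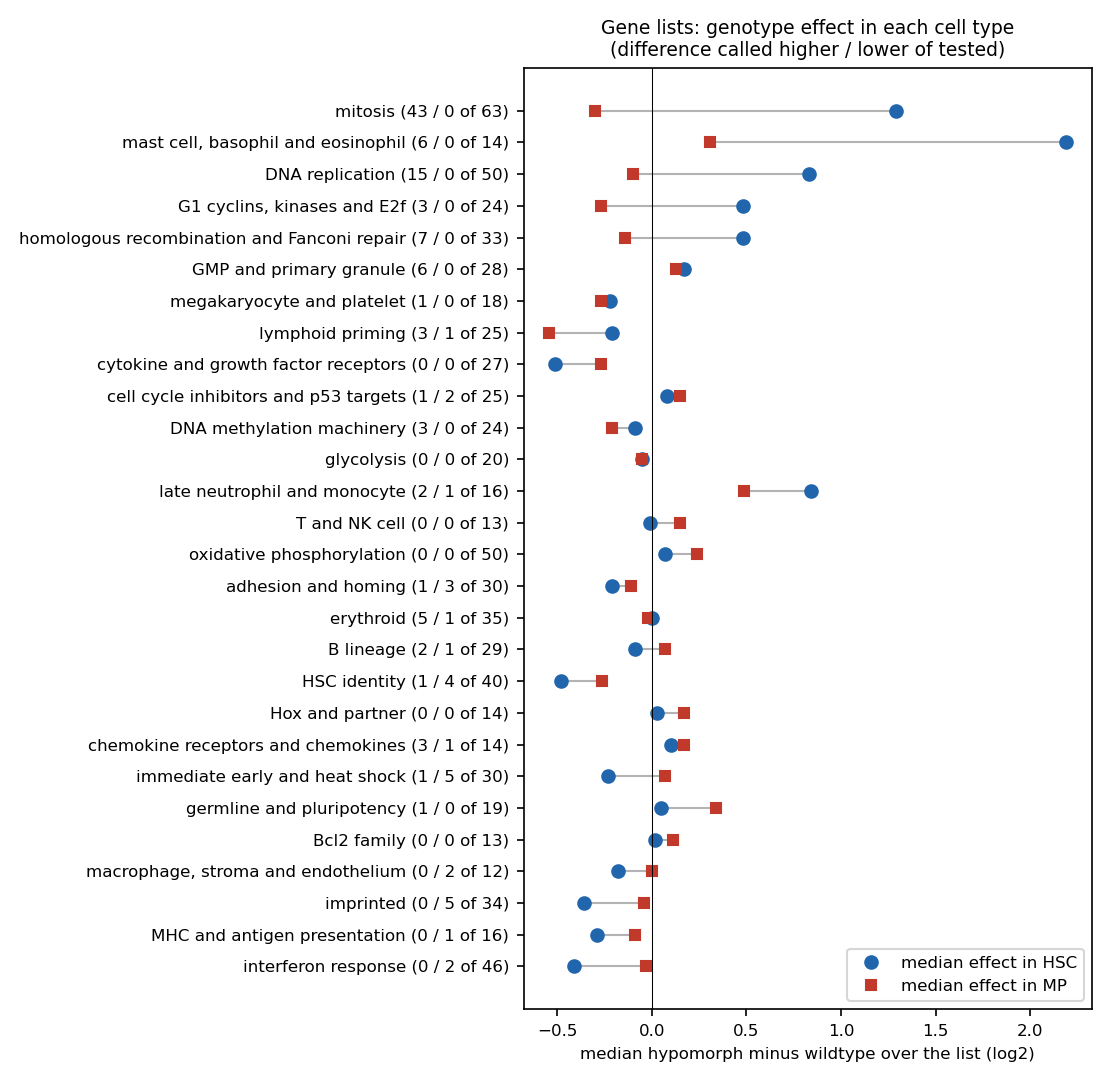
For 28 gene lists, circles give the median genotype effect in HSC and squares that in MP (log2), and brackets give how many members had a called difference, higher and lower, of those tested. The widest separations are those of the mast cell and mitosis lists, and most other lists have medians within 0.5 of each other.

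Several lists held 0 called members by limma. They were the T and NK cell list (0 of 13, 3 at an unadjusted p under 0.05), cytokine and growth factor receptors (0 of 27, 4 unadjusted), Hox genes and partners (0 of 14, 2 unadjusted), oxidative phosphorylation (0 of 50, 8 unadjusted), glycolysis (0 of 20, 7 unadjusted) and the Bcl2 family (0 of 13, 2 unadjusted). Over all genes tested, 5.64% were called and 3082 of 12765 had an unadjusted p under 0.05. A count of 0 in a short list therefore says little about that list. These counts of 0 did not hold in each fit. With 1 array left out, up to 3 oxidative phosphorylation genes were called higher (without hypomorph HSC array 3 or wildtype HSC array 1) and up to 5 lower (without wildtype MP array 2), and 2 receptor genes were called higher and 1 lower without hypomorph HSC array 3. In each of the other 4 lists at most 1 gene per direction was called when an array was left out. Array weights called 7 genes higher and 6 lower in oxidative phosphorylation, 7 and 3 among the receptors and 3 and 5 in glycolysis. They called 2 and 3 in the Hox list, 1 and 2 in the T and NK cell list and 1 and 1 in the Bcl2 family. Over all 12765 genes tested, array weights called 2002 higher and 1913 lower, so these list counts are no result about the lists. Among 24 genes of the DNA methylation machinery, 3 were called, each higher, against 3.27% of all genes. That count was 1 without hypomorph HSC array 2, wildtype HSC array 2, hypomorph MP array 1 or 2, or wildtype MP array 1 or 3, and 5 without hypomorph HSC array 3. Hells, a chromatin remodeller needed for DNA methylation, read 8.19 and 7.83 in wildtype HSC and 10.04, 10.31 and 10.04 in hypomorph HSC, against 9.93 to 10.40 in MP, and differed by 2.32 (SE 0.30). Uhrf1, which brings Dnmt1 to replicated DNA, differed by 1.97 (SE 0.46), but wildtype HSC arrays 1 and 2 read 9.55 and 7.93. Its call was lost without wildtype HSC array 2 (1.16), hypomorph HSC array 2 (1.92), hypomorph MP array 1 (1.95), hypomorph MP array 2 (1.96), wildtype MP array 1 (1.91) or wildtype MP array 3 (1.87). Of 30 adhesion and homing genes, 1 was called higher and 3 lower, against 3.27% and 2.37% of all genes, with 1 to 5 higher and 0 to 5 lower as single arrays were left out (both 5 without hypomorph HSC array 3, and 0 lower without wildtype MP array 3). The higher one was the integrin gene Itgal, at 2.49 (SE 0.40), or 1.33 as the mean of its probe sets. Cd48, a surface marker used to separate progenitors from HSC, read 8.25 and 8.29 in wildtype HSC, 10.61, 9.98 and 9.05 in hypomorph HSC and 9.11 to 10.13 in MP, and differed by 2.45 (SE 0.46).

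The promoter windows of the called genes were then described by letters alone, with a match counted on either strand and a gene counted once if any of its windows matched. For CG, each gene was represented by its window with the most. The median number of CG was 24 in genes called higher, 18 in genes called lower and 21 over all genes tested. Genes with fewer than 5 CG in that window made up 9.52%, 9.79% and 8.47% of the genes with a window in these sets. They made up 66.7% of the 12 mast cell list genes with a window and 37.5% of the 24 of the granulocyte-monocyte list. Counted by window over the whole RefSeq table, the median was 7 CG and 38.0% of windows held fewer than 5. The cell cycle homology element TTTGAA was found in 28% of genes called higher, 11.5% of genes called lower, 66.7% of the mitosis list and 14.4% of all genes tested. The CCAAT box was found in 72.2% of the mitosis list and 42.2% of all genes tested. An E2F site, TTTGGCGC or TTTCCCGC, was found in 26.8% of the DNA replication list and 3.44% of all genes tested. The GATA site AGATAA was found in 28% of the erythroid list and 8.17% of all genes tested. Over all 32851 windows of the RefSeq table, whether or not their gene was tested, the shares were 17.9% for TTTGAA, 37.4% for CCAAT, 1.56% for the E2F sites and 11.2% for AGATAA. No motif contains another on either strand, and a match is a description of the sequence, not a bound site.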

How the data were processed

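The authors deposited Affymetrix values that RMA had summarised on a log2 scale, per the submitters' processing notes for RMA and by inference from the range (1.93 to 14.99) for the base. The table holds 45101 probe sets in 24 columns. Which RMA software was used is not stated in the sources at hand. The first normalization (13 arrays) was used, with no detection calls. Of probe sets with 1 gene symbol (34958), those at or above 4.64 (the median of the whole table) on 2 or more arrays passed, so a gene could pass through 1 group alone, and each gene was represented by its probe set of highest mean.

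limma 3.58.1 (R 4.3.3) was fitted to 5 groups (8 residual degrees of freedom, two-sided), with Benjamini-Hochberg adjustment over all 12765 genes and a threshold of 0.05. Intervals are 95% confidence intervals, and the number of arrays limits precision. The fit was tested on simulated data with the same normal spread per gene in all groups. It recovered 0.2% of true log2 differences of 0.5, 6.4% of those of 1, 78.8% of those of 2 and 98% of those of 3. Of its calls, 5.27% were false. A gene that was not called may therefore still differ by 2-fold. The members, the 29 gene lists and the tests were chosen with earlier results of these data known, so lists were counted, not tested. By rule the genes to name were Dnmt1, 6 lineage factors and the 10 highest and 10 lowest differences. The rule added up to 2 genes per list with the largest called difference. It also added genes with opposite effects and up to 6 genes called in MP and not in HSC. Called and chosen by that rule, but not described above, are Jund (-2.1), Rhag (2.04), Plek (2.24), Tfdp1 (1.9) and Btg1 (2.54). So are Gadd45b (-1.85), Col1a2 (-2.03), Cd86 (-1.45), Jam2 (-1.76) and Znrf3 (2.04). Each of these genes lost its call with at least 1 array left out. Further list members were chosen as examples after their values were seen. Of the 720 genes called, 355 had several tested probe sets, and for 91 of these one had the other sign. Alternatives were the second normalization, the 11 arrays alone, other filters and probe set rules, centring, trended and robust priors, array weights, the replicate number as a block, and each array left out.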

Additional observations from a re-analysis of the deposited data

Results flagged for a closer look

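The genotype effect differed between HSC and MP for 720 genes by the test of the difference itself, which is the main comparison above. For 4 genes the effects were called in both cell types in opposite directions: BC018473, with a difference of -2.99, Gda with -2.34, Tmem53 with -2.06 and Tpm4 with 1.84. All 4 kept their call with each of the 11 arrays left out. No group had enough arrays for a search for outlying arrays.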

How the results depend on the processing

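The array labels number replicates 1 to 3 without saying what a number marks, and same-numbered arrays did not deviate together: over 15 same-number pairs of groups the correlations of deviations ran from -0.31 to 0.30, and 4 exceeded 0.1. With the replicate number as a block, the difference had 376 calls (231 higher, 145 lower), 371 of them among the 720, and the HSC effect had 899. Array weights gave 3915 calls (2002 higher, 1913 lower), with 2346 in HSC and 4608 in MP; the estimate of the weights stopped before convergence. A filter at the 75th percentile gave 415 higher and 200 lower calls among 8662 genes. With 1 array left out, calls ran from 242 to 1447, higher calls from 153 to 908, lower calls from 89 to 548, HSC calls from 456 to 1800 and MP calls from 38 to 183. The second normalization (719 calls), the 11 arrays alone (704), a trended (772) or robust (708) prior, no filter (632), the mean of probe sets (869), every probe set (970) and centred arrays (824) stayed within 1.5 times of 720. Of the 720 genes, 717 kept their direction with the mean of probe sets and 719 in the second normalization, and all that were tested kept it under the other settings. Wherever a setting left 1 wildtype HSC array, that array was assumed to vary like the other groups. Without detection calls, low values cannot be marked as above or below background.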

Other observations

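The genotype effect differed between HSC and MP by limma for some genes of other lineages and processes, against 3.27% of all genes called higher and 2.37% lower. Among 25 lymphoid priming genes 3 were called higher and 1 lower, with a median difference of 0.19. That median was 0.63 in the second normalization (21 genes), 0.39 with array weights, 0.50 without hypomorph HSC array 3, 0.32 without wildtype MP array 2, 0.10 without wildtype HSC array 1 and 0.11 without hypomorph MP array 2. Among 29 B lineage genes 2 were called higher and 1 lower. Of 18 megakaryocyte and platelet genes 1 was called, higher, and of 16 genes of antigen presentation 1, lower. Among 25 cell cycle inhibitors and p53 targets 1 was called higher and 2 lower. With single arrays left out, lower calls fell to 0 in at least 1 fit for lymphoid priming, B lineage, antigen presentation and inhibitor lists. So did the higher calls of the megakaryocyte and inhibitor lists. Of 12 genes of macrophages, stroma and endothelium 2 were called, both lower, and these calls also fell to 0 in at least 1 fit. The mean level of that list was 5.75 in wildtype HSC, 5.22 in hypomorph HSC, 5.45 in wildtype MP and 5.37 in hypomorph MP.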
